A study of Rattus norvegicus with 12 samples.

Results

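The genes examined were 10 targets and regulators of the aryl hydrocarbon receptor and of the oxidative stress response in bone of young female rats: Ahr, Cyp1a1, Cyp1b1, Nfe2l2, Nqo1, Hmox1, Gclc, Gclm, Txnrd1 and Srxn1. They were chosen by name, and every probe set of the array whose platform annotation gave exactly 1 symbol, and that symbol 1 of these, was kept, which gave 15 of the 31042 probe sets tested and 10 of the 14217 genes. Ahr, Gclc and Txnrd1 had 2 probe sets each and Srxn1 had 3, so probe sets of 1 gene are not separate genes. All were female Sprague-Dawley rats, treated from weaning at postnatal day 21 and killed at postnatal day 34. SPI rats ate a diet with soy protein isolate as its protein. E2 rats ate the control diet and received estradiol (E2) from a subcutaneous pump. SPI+E2 rats had the soy diet together with the pump, and CAS rats, the controls, ate the casein diet. Tibia was frozen after the marrow had been aspirated, and each of the 12 arrays, 3 per group, held the RNA of a pool of 2 to 3 rats. The spread between arrays is therefore a spread between pools, and no single rat was measured.

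The deposited values were log values from which each probe set's median over the 12 arrays had been removed. They show differences between groups for 1 probe set, and neither a level nor a comparison of levels between genes, so the bone label could not be checked by the presence of bone cell markers. The logs were taken as log2, as the methods imply. A change was called where the adjusted p of limma, corrected over all 31042 probe sets by the Benjamini-Hochberg method, was below 0.05. Values of all probe sets ran between -2.2 and 3.47, array medians between -0.0042 and 0.0073, and correlations of centred values between arrays of 1 group between 0.279 and 0.542. Bone is a mixture of cells, and in bulk tissue fewer cells of a type cannot be told apart from less RNA per cell.

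The aryl hydrocarbon receptor, encoded by Ahr, is a ligand-activated transcription factor that pairs with ARNT and binds xenobiotic response elements. Its classic targets are the cytochrome P450 genes Cyp1a1 and Cyp1b1, whose enzymes oxidise polycyclic hydrocarbons and also hydroxylate estrogens. NRF2, encoded by Nfe2l2, is held for degradation by KEAP1 until electrophiles or oxidants release it, after which it binds antioxidant response elements with a small MAF protein. NRF2 drives enzymes of quinone reduction, heme breakdown, and glutathione and thioredoxin metabolism, and Nqo1 is a target of both factors.

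Promoter windows of 300 bases (from 250 before an annotated start to shortly after it, RefSeq, GRCr8) were given for 8 of the 10 genes, in 9 windows. Cyp1a1 and Hmox1 had no entry. The xenobiotic response element core, searched as TNGCGTG on both strands, was found in the window of 1 gene, Cyp1b1, against 4.89% of 33469 windows. The antioxidant response element, searched as TGACNNNGC on both strands, was found in windows of 3 genes, Nfe2l2, Gclm and Txnrd1, against 12.1% of all windows. The 2 strings can share bases, but no member window held both. The stretches below belong to Cyp1b1, Gclm and Txnrd1, with the match in capitals, and to Nqo1, in whose window neither string was found although it gave the smallest p of the members. The match lay at -22 to -16 from the start in Cyp1b1, at -172 to -164 in Gclm and at -78 to -70 in Txnrd1, the last pair on the opposite strand. Each is a match of letters and not a measured site.
Cyp1b1, chr6:21094531-21094560, plus strand: ggagtagagggaTGGCGTGtcgcctctggg
Gclm, chr2:213031885-213032134, plus strand: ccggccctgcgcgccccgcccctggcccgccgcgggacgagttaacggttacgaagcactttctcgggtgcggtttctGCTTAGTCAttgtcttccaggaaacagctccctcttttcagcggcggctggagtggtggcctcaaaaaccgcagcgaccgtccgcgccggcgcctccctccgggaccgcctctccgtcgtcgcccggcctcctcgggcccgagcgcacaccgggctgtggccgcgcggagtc
Txnrd1, chr7:22755964-22755993, minus strand: actggatttttGCTTTGTCAttctgacacg
Nqo1, chr19:52220268-52220517, minus strand: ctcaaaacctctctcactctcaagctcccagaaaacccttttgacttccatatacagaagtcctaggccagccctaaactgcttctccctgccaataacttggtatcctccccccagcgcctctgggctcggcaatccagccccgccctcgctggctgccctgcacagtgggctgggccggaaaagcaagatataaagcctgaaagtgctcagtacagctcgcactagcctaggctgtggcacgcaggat

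Across the 4 groups, Cyp1a1, Cyp1b1, Nqo1, Hmox1 and Gclm differed and the other genes did not pass the F test over the groups. These were 5 of the 15 probe sets past the limma F test, against 25.2% of all probe sets. The calls for Cyp1b1, Nqo1 and Hmox1 were kept in all 17 alternatives. That for Cyp1a1 was kept in 11, and was lost without CAS 1, CAS 2, CAS 3, SPI+E2 2 or SPI+E2 3 and by one-way analysis of variance (adjusted p up to 0.105). That for Gclm was kept in 7, and was lost without any CAS or E2 array, SPI 2, SPI+E2 1 or SPI+E2 2 and by one-way analysis of variance (up to 0.115). Compared to CAS, 1 probe set passed in SPI (Cyp1b1, higher), against 17.3% of all probe sets in either direction and 8.25% higher. In E2, 4 passed, against 9.35%: Cyp1b1 and Nqo1 were higher (4.99% of all) and Hmox1 and Gclm lower (4.36%). In SPI+E2, 3 passed, against 8.48%: Cyp1a1, Cyp1b1 and Nqo1, all higher (4.14% of all). No member probe set passed in the lower direction in SPI or SPI+E2 by limma, against 9.07% and 4.33% of all probe sets. At an unadjusted p below 0.05, 1 member probe set was lower in SPI and 3 in SPI+E2. All probe sets were not counted at that looser threshold. The changes were small: 0 of the 15 reached 1.5-fold against CAS, with 2.43% of all probe sets doing so in SPI, 1.64% in E2 and 0.474% in the SPI+E2 group, and the largest fold against CAS was 1.42, for Cyp1a1 in SPI+E2. The 3 arrays of a group lay wholly above or below those of CAS for 6 of 15 probe sets in SPI, 9 in E2 and 8 in the SPI+E2 group, against 33.9%, 29.8% and 30.5% of all probe sets. The median absolute log2 difference from CAS was 0.11 for the members in SPI, 0.14 in E2 and 0.12 in the SPI+E2 group, beside 0.11, 0.08 and 0.09 over all probe sets. All 3 comparisons use the same CAS arrays.

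**Figure D1:**
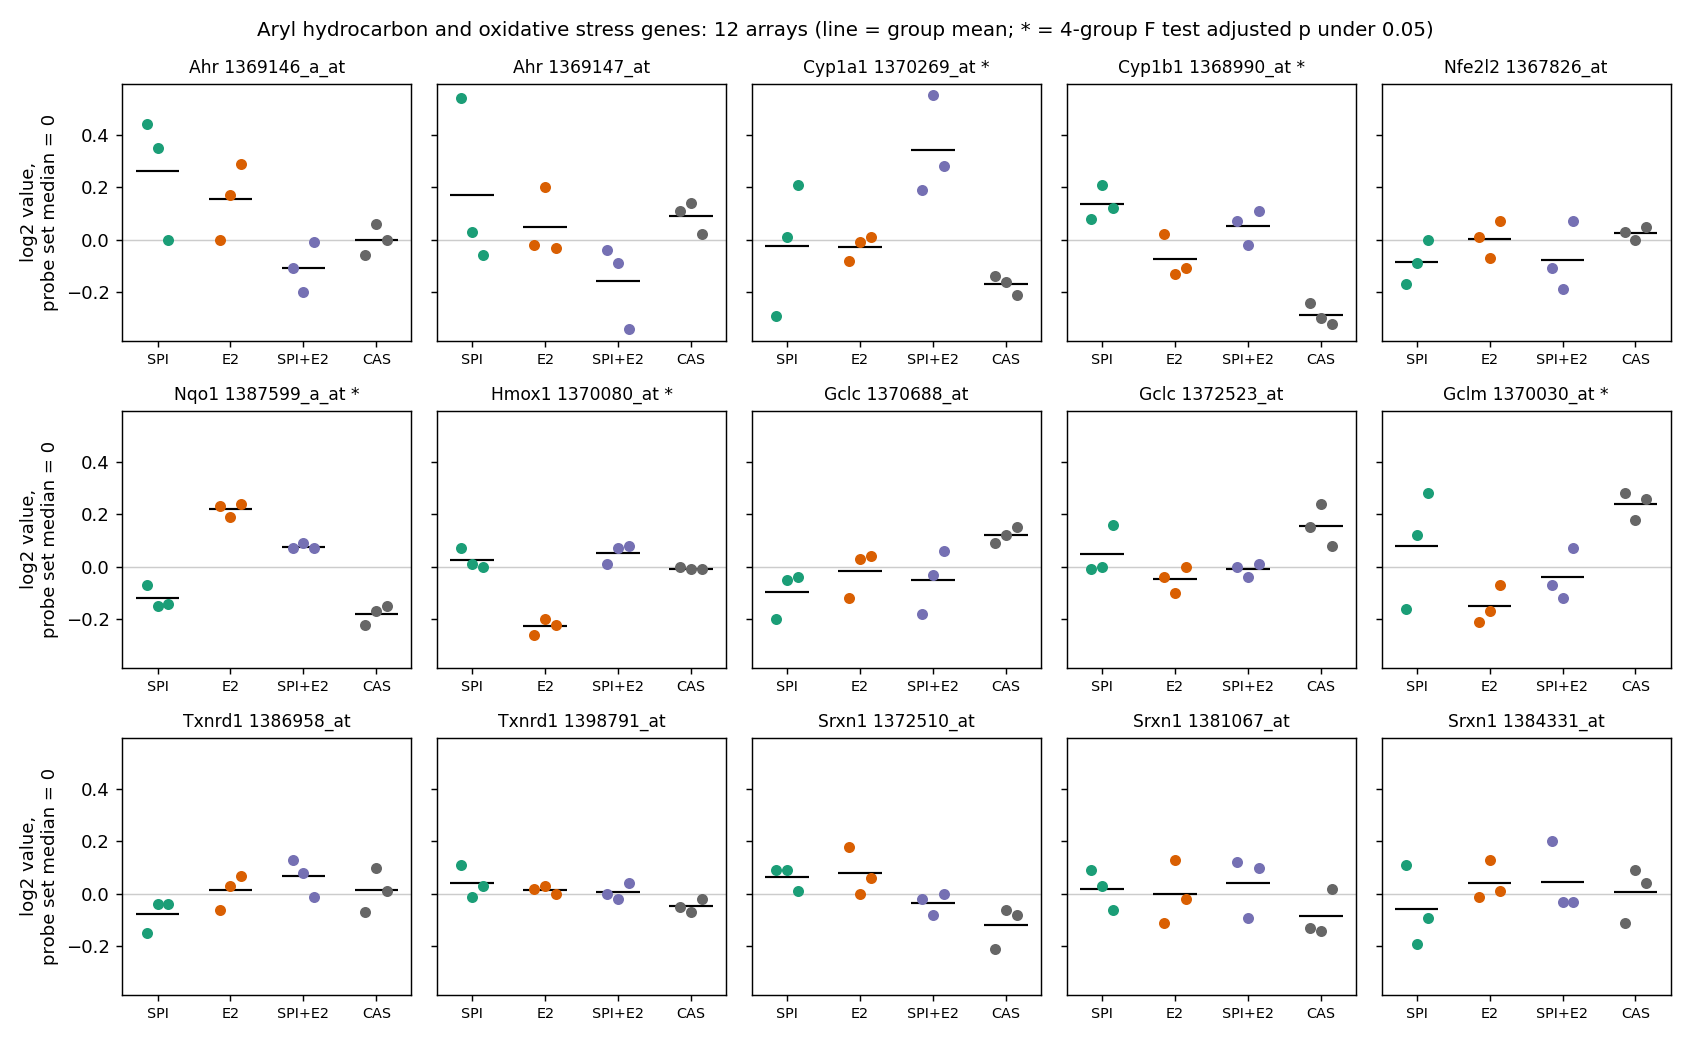
Centred log2 values of the 15 probe sets, 1 panel each, all on the same scale. Dots are the 3 arrays of SPI, E2, SPI+E2 and CAS, and lines are group means. A star marks the 5 probe sets past the limma F test. The 3 E2 arrays of Hmox1 sit between -0.26 and -0.20, below all others, and the 3 CAS arrays of Cyp1b1 sit between -0.32 and -0.24, below all others.

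Cyp1b1 (chromosome 6, 21093927 to 21103091, GRCr8), the P450 that hydroxylates estradiol and many hydrocarbons, was higher than in CAS in all 3 treated groups. Its centred log2 values were 0.08, 0.21 and 0.12 in SPI arrays, 0.02, -0.13 and -0.11 in E2 arrays, 0.07, -0.02 and 0.11 in SPI+E2 arrays, and -0.24, -0.30 and -0.32 in CAS arrays. Every treated array was above every CAS array. Compared to CAS, the log2 difference was 0.42 ± 0.06 in SPI (SE, limma adjusted p = 0.000528), 0.22 ± 0.06 in E2 (adjusted p = 0.0433) and 0.34 ± 0.06 in SPI+E2 (adjusted p = 0.00500). SPI was also above E2, by 0.21 (adjusted p = 0.0353), and those arrays did not overlap. That comparison called 3 of the 15 probe sets, against 16.7% of all. SPI+E2 did not pass against SPI (log2 difference -0.08, 95% interval -0.21 to 0.05) or against E2 (0.13, -0.01 to 0.26). The E2 call was lost when CAS 1, CAS 2, CAS 3, E2 1, E2 2, E2 3, SPI 3 or SPI+E2 1 was left out, with differences of 0.17 to 0.24 and an adjusted p of up to 0.176 over all alternatives, and the SPI against E2 call was lost without SPI 2, SPI 3, E2 2 or E2 3 (differences 0.17 to 0.25). Both calls were also lost in a fit of the 2 groups alone, and the SPI against E2 call under quantile normalization. Ranges given with a lost call run over all alternatives.

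Cyp1a1 (chromosome 8, 66991940 to 66998014), the most inducible aryl hydrocarbon receptor target in many tissues, was higher in the combined treatment. Its values were -0.29, 0.01 and 0.21 in SPI arrays, -0.08, -0.01 and 0.01 in E2 arrays, 0.19, 0.55 and 0.28 in SPI+E2 arrays, and -0.14, -0.16 and -0.21 in CAS arrays. The SPI+E2 arrays were above all CAS and E2 arrays, while the SPI arrays were spread over most of the range and 1 of them exceeded the lowest SPI+E2 array. SPI+E2 exceeded CAS by 0.51 ± 0.11 on the log2 scale (limma adjusted p = 0.0185), with E2 alone at 0.14 and SPI alone at 0.15, neither past the test. Against the single treatments the differences of SPI+E2 were 0.36 from SPI (adjusted p = 0.0666) and 0.37 from E2 (adjusted p = 0.0649). The call against CAS was lost without CAS 1, CAS 2, CAS 3 or SPI+E2 2, with differences of 0.40 to 0.58 and an adjusted p of up to 0.0688. Without SPI 3 the differences were 0.48 from SPI (adjusted p = 0.0173) and 0.37 from E2 (adjusted p = 0.0342), and without SPI 1 that from E2 had an adjusted p of 0.0207. The difference from E2 also passed under quantile normalization (0.37, adjusted p = 0.035) and when tested among genes (0.37, 0.0481). That from SPI also passed when tested among genes (0.36, 0.0482).

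Ahr (chromosome 6, 57961423 to 57998901), the receptor itself, passed only between SPI+E2 and SPI, on 1 of its 2 probe sets. Probe set 1369146_a_at read -0.11, -0.20 and -0.01 in SPI+E2 arrays, against 0.44, 0.35 and 0.00 in SPI arrays. It read 0.00, 0.17 and 0.29 in E2 arrays and -0.06, 0.06 and 0.00 in CAS arrays. SPI 1 and SPI 2 were high, and SPI 3 lay with the CAS arrays. SPI+E2 was lower than SPI (log2 difference -0.37 ± 0.11, limma adjusted p = 0.0475), in a comparison that called 2 of the 15 probe sets, against 11.4% of all. The call was kept in 4 of 17 alternatives and was lost without CAS 1, CAS 2, CAS 3, SPI 1, SPI 2, E2 2 or any of the 3 SPI+E2 arrays (differences -0.50 to -0.28 over all alternatives). It was also lost under quantile normalization, under robust empirical Bayes and in a fit of the 2 groups alone. The mean of both probe sets, tested among genes, was lower in SPI+E2 than in SPI (-0.35, limma adjusted p = 0.0381). SPI against CAS gave 0.27 (adjusted p = 0.117), and 0.40 (adjusted p = 0.0120) without SPI 3. The other probe set, 1369147_at, had 0.54, 0.03 and -0.06 in SPI arrays and passed in no comparison, with SPI minus CAS at 0.08 and SPI+E2 minus CAS at -0.25.

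A list of 14 genes around the receptor held partners, chaperones, its repressor and further genes, and 10 were measured (1 value per gene, the mean of its probe sets). Nfe2l1 stands in it and also in the list of NRF2 control genes below. Of the 10 measured, 2 were higher in SPI, 1 in E2 and 2 in the SPI+E2 group compared to CAS, against 10.7%, 6.98% and 5.80% of all genes. None was lower by limma, against 14.6%, 7.23% and 7.06% of all genes (at an unadjusted p below 0.05, 2 in SPI+E2 and 0 in the other groups). Sult1a1, a sulfotransferase that conjugates phenols and estrogens, was higher in all 3: its arrays spanned -0.07 to -0.01 in SPI, 0.03 to 0.27 in E2, 0.01 to 0.04 in SPI+E2 and -0.68 to -0.43 in CAS. All 9 treated arrays stood above the CAS arrays, with log2 differences of 0.50 in SPI (limma adjusted p = 0.000306), 0.68 in E2 (3.78e-05) and 0.58 in SPI+E2 (0.000308). Arnt2, a paralogue of the receptor's partner, was higher in SPI (0.23, adjusted p = 0.0462), and Aldh3a1, an aldehyde dehydrogenase, in SPI+E2 (0.29, adjusted p = 0.0493). The Arnt2 call was kept in 6 of 15 alternatives (differences 0.17 to 0.30), as was the Aldh3a1 call (0.23 to 0.34). That of Arnt2 was lost without CAS 2, CAS 3, SPI 1, SPI 2, any E2 array or SPI+E2 1 and under quantile normalization. That of Aldh3a1 was lost without any CAS array, SPI 2, E2 1, E2 3, SPI+E2 1 or SPI+E2 2 and under robust empirical Bayes.

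Nfe2l2 (chromosome 3, 81001529 to 81031165), the NRF2 gene, passed in no comparison. It had -0.17, -0.09 and 0.00 in SPI arrays, 0.01, -0.07 and 0.07 in E2 arrays, -0.11, -0.19 and 0.07 in SPI+E2 arrays, and 0.03, 0.00 and 0.05 in CAS arrays. All 4 groups overlapped, and the 95% intervals of the log2 difference from CAS were -0.26 to 0.04 in SPI, -0.18 to 0.13 in E2 and -0.25 to 0.05 in SPI+E2. NRF2 is controlled mainly as a protein, which these arrays do not measure. Of 11 measured genes of 12 that control NRF2, 1 was lower in SPI, 0 in E2 and 1 in the SPI+E2 group, against 14.6%, 7.23% and 7.06% of all genes. None was higher by limma, against 10.7%, 6.98% and 5.80% of all genes (0 at an unadjusted p below 0.05 in each, and 0 lower in E2). The gene called lower was Keap1, the adaptor that marks NRF2 for degradation. Its arrays spanned -0.20 to 0.00 in SPI, -0.04 to 0.05 in E2, -0.14 to -0.01 in SPI+E2 and 0.04 to 0.16 in CAS. Its log2 difference from CAS was -0.19 in SPI (limma adjusted p = 0.0357), -0.11 in E2 (0.283) and -0.20 in SPI+E2 (0.0467). The SPI call was lost without CAS 1, CAS 2 or SPI 3 (differences -0.23 to -0.13), and the SPI+E2 call without CAS 1, CAS 2, SPI 2, any E2 array, SPI+E2 2 or SPI+E2 3 (-0.24 to -0.18).

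Nqo1 (chromosome 19, 52205374 to 52220267), the quinone reductase that spends NADPH to take quinones, catechol estrogen quinones among them, to hydroquinones, was higher in both groups given E2. The values were -0.07, -0.15 and -0.14 in SPI arrays, 0.23, 0.19 and 0.24 in E2 arrays, 0.07, 0.09 and 0.07 in SPI+E2 arrays, and -0.22, -0.17 and -0.15 in CAS arrays. E2 stood highest and SPI+E2 next, with no overlap between them or with the rest, and SPI and CAS arrays met near -0.15. Compared to CAS the log2 difference was 0.40 ± 0.04 in E2 (limma adjusted p = 0.000113; 1.32-fold) and 0.26 ± 0.04 in SPI+E2 (adjusted p = 0.00446), and it was 0.06 in SPI (95% interval -0.03 to 0.16). SPI was lower than E2 (log2 difference -0.34, adjusted p = 0.000380), and SPI+E2 was higher than SPI by 0.20 (adjusted p = 0.0146), a call lost without SPI 2 or in a fit of those 2 groups alone, where the adjusted p reached 0.103. SPI+E2 minus E2 was -0.14 (adjusted p = 0.0646), and it passed without SPI 1 (0.0486), under quantile normalization (-0.18, 0.0235) and as the mean per gene (-0.14, 0.0271). The E2 and SPI+E2 calls against CAS and the SPI call against E2 were kept in all 17 alternatives. Beside it, 10 measured fibroblast and matrix markers averaged -0.08 to -0.01 in SPI, 0.08 to 0.11 in E2, -0.10 to -0.07 in SPI+E2 and -0.01 to 0.02 in CAS. They were highest in E2 as Nqo1 was, but lowest in SPI+E2, and their part in the Nqo1 values was not tested.

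Hmox1 (chromosome 19, 13452365 to 13479823), heme oxygenase, which opens the heme ring and releases iron and carbon monoxide, was lower than in CAS in E2. The arrays read 0.07, 0.01 and 0.00 in SPI, -0.26, -0.20 and -0.22 in E2, 0.01, 0.07 and 0.08 in SPI+E2, and 0.00, -0.01 and -0.01 in CAS. The 3 E2 arrays lay below the 9 others, which stayed within a narrow band. The log2 difference of E2 from CAS was -0.22 ± 0.04 (limma adjusted p = 0.00807), that of SPI was 0.03 (95% interval -0.06 to 0.13) and that of SPI+E2 was 0.06 (-0.04 to 0.15). SPI was higher than E2 by 0.25 (adjusted p = 0.00251) and SPI+E2 higher than E2 by 0.27 (adjusted p = 0.00250), the only member past the test in a comparison that called 10.5% of all probe sets. These 3 calls were kept in all 17 alternatives.

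Heme oxygenase is abundant in macrophages that clear red cells, and markers of blood cells left in the bone are given here beside it. The mean per array of the centred log2 values of 9 measured macrophage markers was -0.11 to -0.03 in SPI, -0.04 to 0.03 in E2, 0.06 to 0.08 in SPI+E2 and 0.01 to 0.02 in CAS. None of the 9 was called in either direction in E2 by limma (1 lower at an unadjusted p below 0.05), against 14.2% of all genes called. The 9 erythroid markers averaged 0.02 to 0.09 in SPI, -0.33 to -0.27 in E2, -0.08 to -0.03 in SPI+E2 and 0.49 to 0.51 in CAS. Limma called 8 of them lower than the controls with the soy diet alone, 9 with the pump alone and 9 with both treatments. Of all genes, 14.6%, 7.23% and 7.06% were called lower. E2 was thus lowest for the erythroid markers as for Hmox1, whereas CAS, highest for those markers, was not the highest for Hmox1. The 6 neutrophil markers averaged 0.05 to 0.08 in SPI, -0.21 to -0.20 in E2, 0.22 to 0.27 in SPI+E2 and -0.11 to -0.07 in CAS. Their order, rising from E2 through CAS and SPI to SPI+E2, was also that of the Hmox1 group means (-0.22, -0.01, 0.03 and 0.05). For Hmox1 the SPI and SPI+E2 arrays overlapped. Centred values cannot show whether a defining marker is absent, and the part of these cells in the Hmox1 values was not tested.

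**Figure D2:**
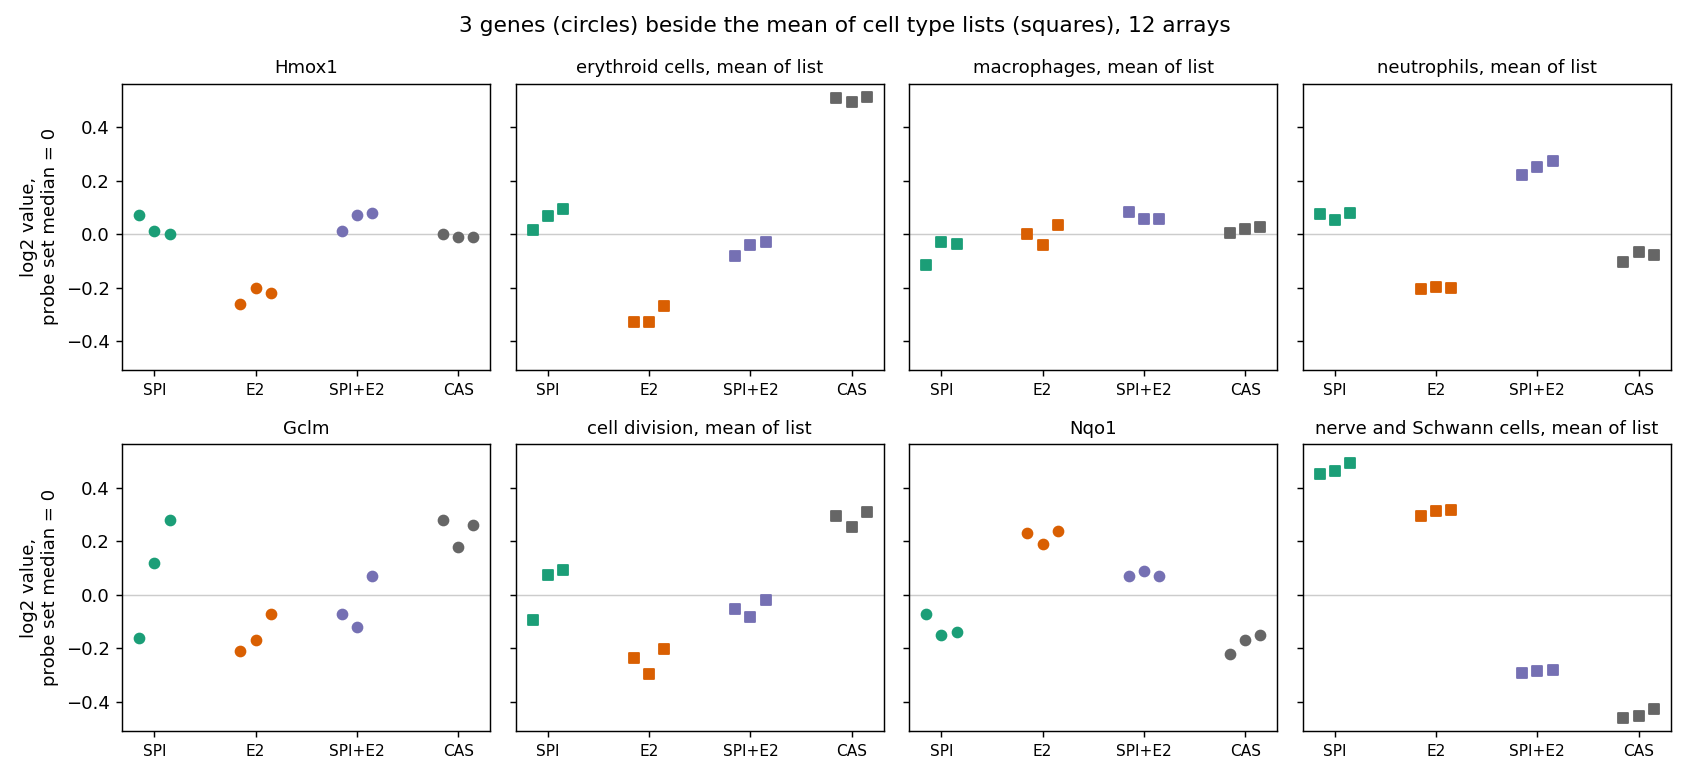
Centred log2 values per array of Hmox1, Gclm and Nqo1 and of the mean of marker lists for erythroid cells, macrophages, neutrophils, cell division and nerve, for SPI, E2, SPI+E2 and CAS. Erythroid markers run between -0.33 and -0.27 in E2 and between 0.49 and 0.51 in CAS, and division genes between -0.30 and -0.20 in E2 and between 0.25 and 0.31 in CAS.

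Of 14 measured genes of 16 for heme and iron handling, 6 were lower in SPI, 7 in E2 and 4 in the SPI+E2 group, against 14.6%, 7.23% and 7.06% of all genes. In the same order 0, 2 and 1 were higher, against 10.7%, 6.98% and 5.80% of all genes (0 higher in SPI at an unadjusted p below 0.05). The list holds genes that erythroid cells use for heme synthesis, and Alas2 stands in the erythroid list too. Alas2, the erythroid first enzyme of heme synthesis, had arrays of 0.10 to 0.21 in SPI, -0.54 to -0.49 in E2, -0.14 to -0.10 in SPI+E2 and 0.18 to 0.23 in CAS. It was lower in E2 (log2 difference -0.72, limma adjusted p = 3.94e-07) and SPI+E2 (-0.33, 0.000344), and its difference in SPI was -0.05 (0.440). Blvrb, a biliverdin reductase abundant in red cells, was lower in all 3, with differences of -0.36 in SPI, -0.71 in E2 and -0.42 in the SPI+E2 group. So was Fech, which inserts iron into heme, with -0.16 in SPI, -0.54 in E2 and -0.24 in the SPI+E2 group (highest adjusted p of the 6, 0.0122). The SPI call for Fech was lost without CAS 3 (adjusted p = 0.0549). Alas1, the housekeeping isoform of the first enzyme, had arrays of -0.35 to -0.22 in SPI, 0.18 to 0.24 in E2, -0.05 to -0.01 in SPI+E2 and 0.01 to 0.03 in CAS. It was lower in SPI (-0.33, adjusted p = 0.000220) and higher in E2 (0.18, adjusted p = 0.0139), the E2 call lost without CAS 2 or E2 3 (difference 0.16 to 0.20).

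Gclm and Gclc encode the modifier and the catalytic subunit of glutamate-cysteine ligase, which makes the first bond of glutathione. Gclm (chromosome 2, 213032135 to 213052192) was lower in E2. It had -0.16, 0.12 and 0.28 in SPI arrays, -0.21, -0.17 and -0.07 in E2 arrays, -0.07, -0.12 and 0.07 in SPI+E2 arrays, and 0.28, 0.18 and 0.26 in CAS arrays. E2 and SPI+E2 arrays lay below the CAS arrays, and the SPI arrays ran over most of the range. The log2 difference from CAS was -0.39 ± 0.10 in E2 (limma adjusted p = 0.0239), -0.28 in SPI+E2 (0.0970) and -0.16 in SPI (0.323). The E2 call was lost without CAS 1, CAS 3, E2 1 or E2 2 (differences -0.43 to -0.36, adjusted p up to 0.0924), and without SPI 1 the SPI+E2 difference had an adjusted p of 0.0232 and SPI exceeded E2 by 0.35 (adjusted p = 0.0112). The SPI+E2 difference also passed under quantile normalization (-0.32, adjusted p = 0.0400) and in a fit of SPI+E2 and CAS alone (-0.28, 0.0477).

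Gclc (chromosome 8, 87510251 to 87548896) had differences below 0 from CAS on both probe sets in each treated group, none past the test. Probe set 1370688_at had -0.20, -0.05 and -0.04 in SPI arrays, -0.12, 0.03 and 0.04 in E2 arrays, -0.18, -0.03 and 0.06 in SPI+E2 arrays, and 0.09, 0.12 and 0.15 in CAS arrays. The CAS arrays were above all 9 others. Its log2 difference was -0.21 in SPI (limma adjusted p = 0.0621), -0.13 in E2 and -0.17 in SPI+E2, and the SPI difference had an adjusted p of 0.0444 without SPI+E2 1. For probe set 1372523_at the differences were -0.11 in SPI, -0.20 in E2 (adjusted p = 0.0582) and -0.17 in SPI+E2. Its E2 difference had an adjusted p of 0.0334 without SPI 3 and of 0.0361 under quantile normalization (-0.23). The mean of both probe sets, tested among genes, was lower in SPI (-0.16, limma adjusted p = 0.0427), with -0.17 in E2 (0.0530) and -0.17 in SPI+E2 (0.0572).

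The 10 cell division genes, measured in full, averaged -0.09 to 0.09 in SPI, -0.30 to -0.20 in E2, -0.08 to -0.02 in SPI+E2 and 0.25 to 0.31 in CAS, so that CAS was highest and E2 lowest for them as for Gclm, and SPI 1 was the lowest SPI array for both. By limma against CAS, the soy diet alone lowered 7 of the 10, the pump alone 10 and both treatments together 9. Among all genes the shares called lower were 14.6%, 7.23% and 7.06%. The part of cell division in the Gclm values was not tested.

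Txnrd1 (chromosome 7, 22717620 to 22802553), thioredoxin reductase of the cytosol, and Srxn1 (chromosome 3, 161064812 to 161070372), which repairs overoxidised peroxiredoxins, passed in no comparison on any of their 5 probe sets. Txnrd1 1386958_at lay between -0.15 and 0.13 over all 12 arrays and 1398791_at between -0.07 and 0.11, with log2 differences from CAS of -0.09 to 0.09. The 2 probe sets did not follow each other (Pearson r = -0.58 over the 12 arrays, a description). Srxn1 1372510_at had 0.09, 0.09 and 0.01 in SPI arrays, 0.18, 0.00 and 0.06 in E2 arrays, -0.02, -0.08 and 0.00 in SPI+E2 arrays, and -0.21, -0.06 and -0.08 in CAS arrays. SPI and E2 arrays were above CAS arrays, with log2 differences of 0.18 (limma adjusted p = 0.0637) and 0.20 (0.0672). The E2 difference passed under quantile normalization (0.22, adjusted p = 0.041). The other Srxn1 probe sets, 1381067_at and 1384331_at, overlapped between every group and CAS, with differences from -0.06 to 0.13.

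**Figure D3:**
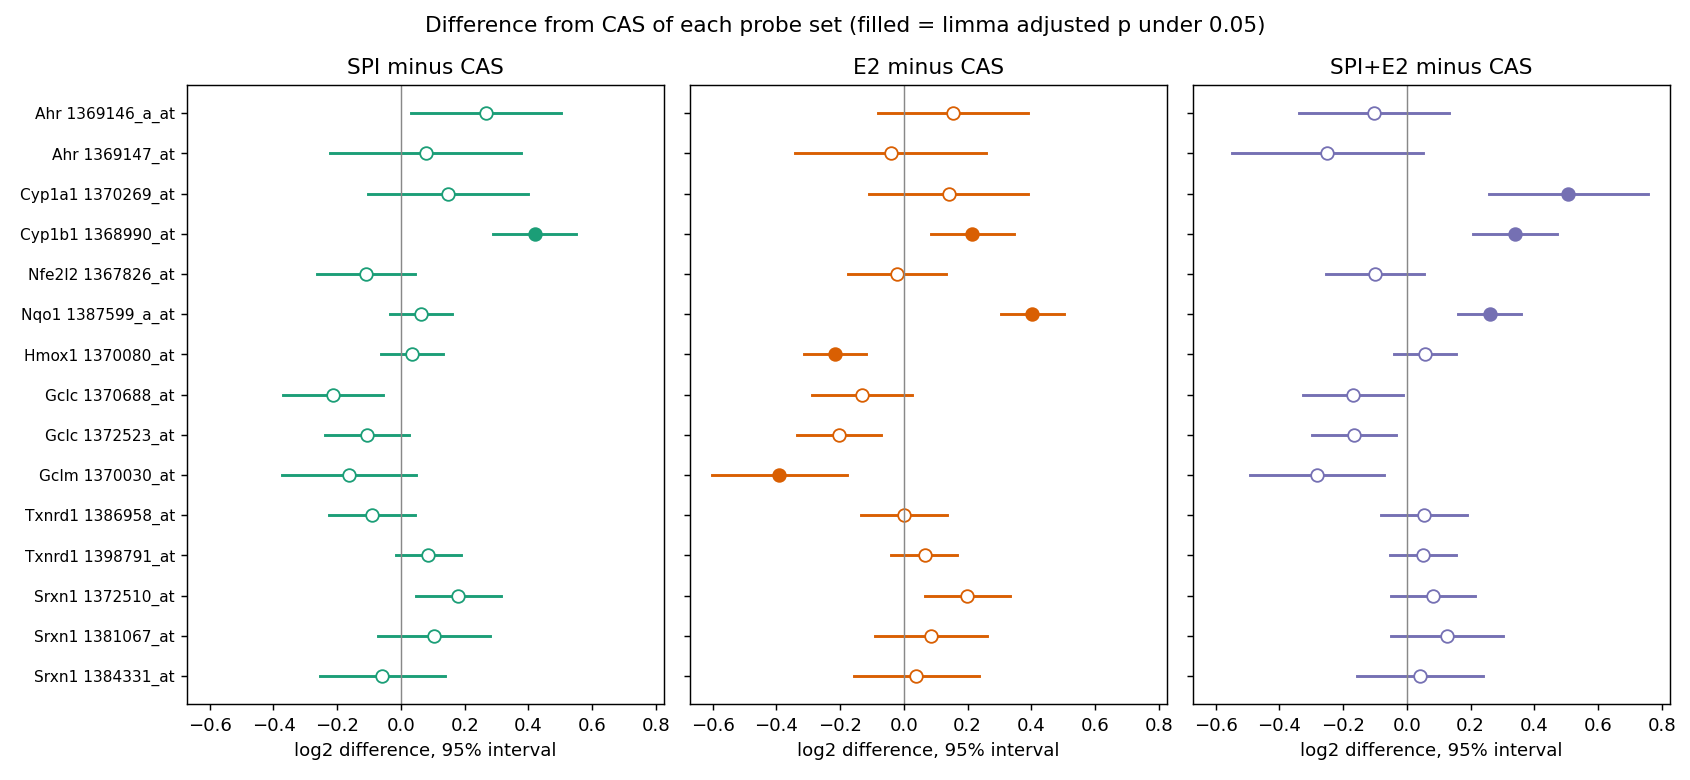
Log2 difference from CAS for each of the 15 probe sets in SPI, E2 and SPI+E2, with 95% intervals from limma; filled points passed an adjusted p of 0.05. Cyp1b1 is filled in all 3 groups (0.42, 0.22 and 0.34), Nqo1 in E2 and SPI+E2 (0.40 and 0.26), and no point lies beyond 0.51.

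Of 23 measured genes of 24 in glutathione and thioredoxin metabolism other than the members, 3 were higher and 6 lower in SPI, 3 higher and 2 lower in E2, and 3 higher and 5 lower in SPI+E2, against 25.4%, 14.2% and 12.9% of all genes called in either direction. Gpx2, a glutathione peroxidase best known from gut epithelium, had arrays of 0.51 to 0.63 in SPI, 0.24 to 0.48 in E2, -0.29 to -0.24 in SPI+E2 and -0.62 to -0.32 in CAS. It was higher by 1.08 in SPI (limma adjusted p = 3.30e-06) and by 0.91 in E2 (1.69e-05), and differed by 0.25 in SPI+E2 (0.0731; 0.35 with an adjusted p of 0.0145 without CAS 1). The order of the groups for Gpx2 was also that of 15 nerve and Schwann cell genes. These averaged 0.45 to 0.49 in SPI, 0.29 to 0.32 in E2, -0.29 to -0.28 in SPI+E2 and -0.46 to -0.43 in CAS. With the soy diet alone limma called all 15 higher against CAS, with the pump alone 14, and with both treatments 7. The shares of all genes called higher were 10.7%, 6.98% and 5.80%. With both treatments 2 of the 15 were called lower, against 7.06% of all genes. The part of nerve tissue in the Gpx2 values was not tested.

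Chac1, which degrades glutathione, had arrays of -0.33 to -0.24 in SPI, 0.24 to 0.29 in E2, 0.31 to 0.37 in SPI+E2 and -0.38 to -0.33 in CAS. The groups given E2 stood apart from the others, with log2 differences from CAS of 0.62 in E2 (limma adjusted p = 1.16e-06), 0.71 in SPI+E2 (1.30e-06) and 0.07 in SPI (0.228). Txnip, the thioredoxin-binding inhibitor, was likewise higher in E2 (0.28, adjusted p = 0.000243) and SPI+E2 (0.47, 2.10e-05), with 0.08 in SPI (0.144). Prdx4, the peroxiredoxin of the secretory pathway, was lower in SPI (-0.39, adjusted p = 0.000103) and SPI+E2 (-0.39, 0.000276), with -0.12 in E2 (0.113).

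Of 29 measured genes of 30 in a list of further NRF2 targets and detoxication enzymes, 2 were higher and 4 lower in SPI, 2 and 2 in E2, and 4 and 3 in SPI+E2, against 25.4%, 14.2% and 12.9% of all genes called in either direction. Mgst3, a membrane glutathione transferase, was lower in SPI (-0.47, limma adjusted p = 6.78e-06) and SPI+E2 (-0.36, 0.000179), with -0.13 in E2 (0.0509; 0.0319 without SPI 1). Aldh1a1, which makes retinoic acid, was lower in SPI (-0.38, adjusted p = 7.09e-05), with 0.04 in E2 and 0.02 in SPI+E2. Gstm2, a cytosolic glutathione transferase, was higher in E2 (0.37, adjusted p = 0.00192) and SPI+E2 (0.25, 0.0257), the last call lost without CAS 1, CAS 3, SPI+E2 1 or SPI+E2 3 (0.19 to 0.31). Akr1b8, an aldo-keto reductase, was higher in E2 (0.33, adjusted p = 0.0240), where 1 array stood at 0.55, and that call was lost without CAS 1, CAS 2 or CAS 3 (0.20 to 0.41 over the alternatives). Genes of the glutathione transferase family are close in sequence, so probe sets of Gstm2 may read related transcripts.

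NADPH feeds the quinone, glutathione and thioredoxin reductases. Of 5 measured genes of 6 listed around its supply, 2 were lower in SPI, 3 in E2 and 2 in the SPI+E2 group, against 14.6%, 7.23% and 7.06% of all genes. None was higher by limma, against 10.7%, 6.98% and 5.80% of all genes (1 in SPI and 0 in the others at an unadjusted p below 0.05). Among the genes called, Pgd and Me1 encode enzymes that make NADPH, and Tkt and Taldo1 encode enzymes that do not. Tkt, transketolase, was lower in all 3 groups, with differences of -0.18 in SPI (limma adjusted p = 0.0104), -0.38 in E2 (9.51e-05) and -0.26 in SPI+E2 (0.00282). Me1, malic enzyme, was lower in SPI (-0.29, 0.000213) and SPI+E2 (-0.22, 0.00308), with -0.12 in E2 (0.0610; 0.0461 without SPI 1). Pgd and Taldo1 of the pentose phosphate pathway were lower in E2 (-0.22, 0.00985 and -0.16, 0.00941).

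Of 9 measured genes of 12 that make or remove superoxide and peroxide, 1 was higher and 2 lower in SPI, and 1 higher and 1 lower in SPI+E2, against 25.4% and 12.9% of all genes called in either direction. None was called in E2 by limma (0 higher and 2 lower at an unadjusted p below 0.05), against 14.2% of all genes. Sod3, the extracellular superoxide dismutase, had arrays of -0.31 to -0.26 in SPI, 0.13 to 0.15 in E2, -0.14 to -0.13 in SPI+E2 and 0.13 to 0.18 in CAS. Both groups fed soy were low, with log2 differences from CAS of -0.42 in SPI (limma adjusted p = 5.41e-06) and -0.29 in SPI+E2 (0.000309), against -0.01 in E2 (0.956). The 9 measured chondrocyte markers averaged -0.38 to -0.33 in SPI, 0.03 to 0.10 in E2, -0.08 in SPI+E2 and 0.35 to 0.39 in CAS, also lowest in the groups fed soy, and their part in the Sod3 values was not tested. Sod2, the mitochondrial enzyme, was lower in SPI (-0.24, adjusted p = 0.000769), with 0.05 in E2 and 0.03 in SPI+E2. Ncf4, a subunit of the phagocyte NADPH oxidase, was higher in SPI (0.25, adjusted p = 0.0158) and SPI+E2 (0.22, 0.0437), with -0.19 in E2 (0.0734; 0.0371 without SPI 2). The SPI call was lost without CAS 1, CAS 3 or SPI 2 (0.18 to 0.30) and the SPI+E2 call without CAS 1, CAS 3, any E2 array or any SPI+E2 array (0.18 to 0.28). Of the 6 neutrophil markers above, 3 were higher than in CAS in SPI and 3 in SPI+E2, against 10.7% and 5.80% of all genes. In E2, 3 of the 6 were lower, against 7.23%. The part of neutrophils in the Ncf4 values was not tested.

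**Figure D4:**
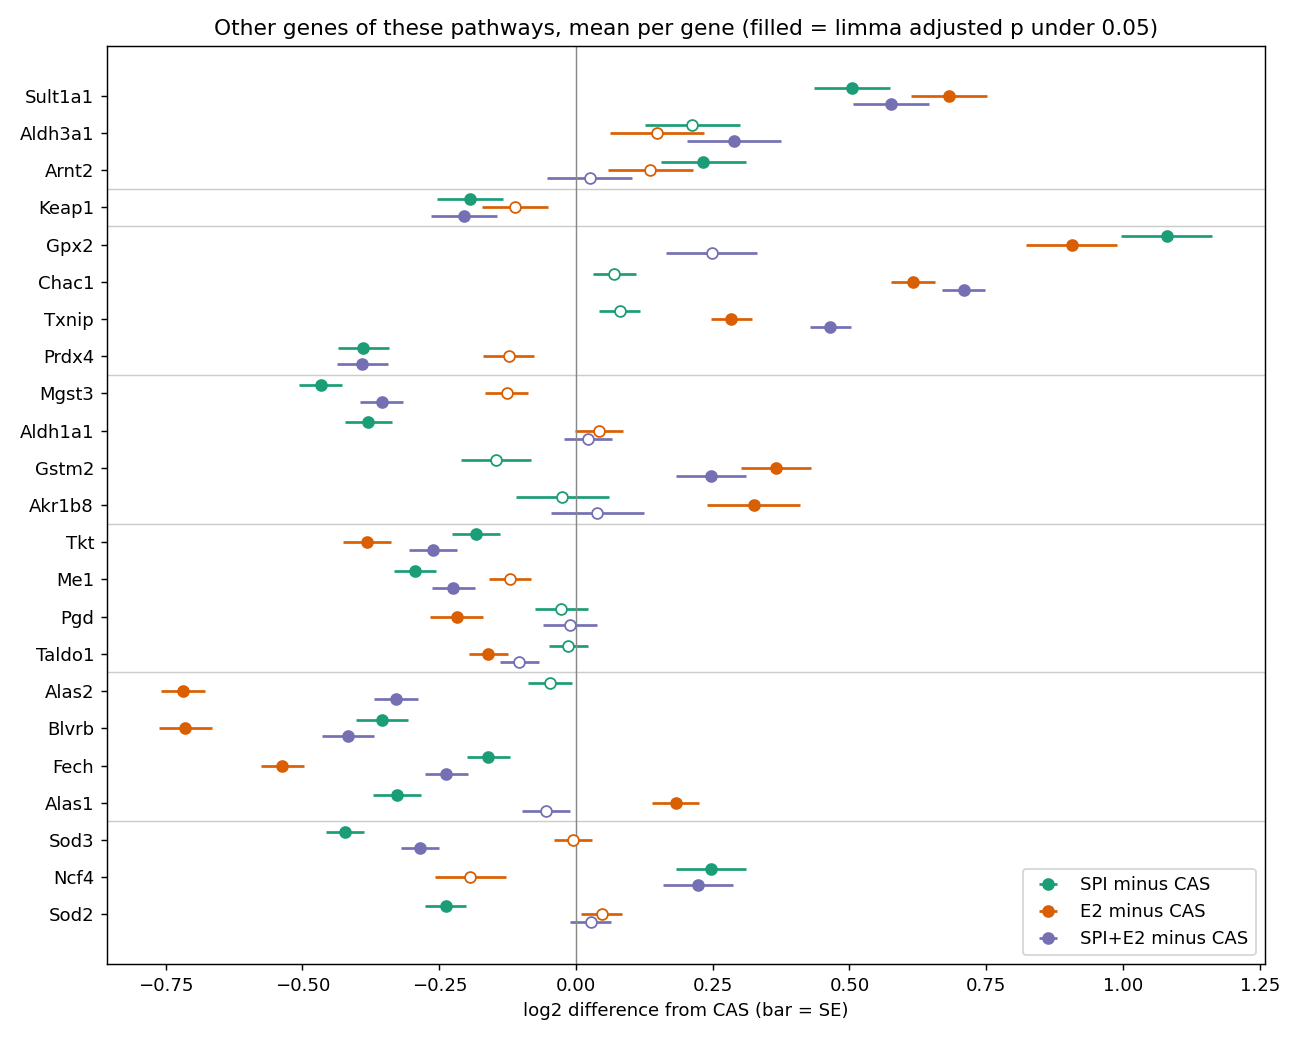
Log2 difference from CAS (± SE, limma on the mean per gene) in SPI, E2 and SPI+E2 for 23 named genes around the members; filled points passed an adjusted p of 0.05. Gpx2 reaches 1.08 in SPI, Chac1 0.71 in SPI+E2 and Alas2 -0.72 in E2.

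Whether the effect of SPI differed with and without E2 was tested as an interaction, the SPI+E2 minus E2 difference less the SPI minus CAS difference. It passed for 2 of the 15 probe sets, against 9.92% of all. For Cyp1b1 it was -0.30 (limma adjusted p = 0.0472): the SPI diet added 0.42 without E2 and 0.13 with it. For Hmox1 it was 0.24 (adjusted p = 0.0322), from 0.03 without E2 and 0.27 with it. Both calls sat near the threshold and were kept in 3 and 5 of 16 alternatives. Quantile normalization and robust empirical Bayes each lost the Cyp1b1 call. The Cyp1b1 interaction was lost without CAS 1, CAS 2, CAS 3, SPI 2, SPI 3, E2 1, E2 2, E2 3, SPI+E2 1 or SPI+E2 2 (-0.33 to -0.25), and that of Hmox1 without CAS 1, CAS 2, CAS 3, SPI 2, SPI 3, E2 1, E2 2, E2 3, SPI+E2 2 or SPI+E2 3 (0.22 to 0.26). Those of Ahr 1369146_a_at and Srxn1 1372510_at were called in some alternatives: under quantile normalization, -0.48 for Ahr (adjusted p = 0.0411) and -0.31 for Srxn1 (0.0484), and with arrays left out, -0.65 for Ahr without SPI 3 and -0.60 without E2 1 (adjusted p = 0.00555 and 0.0368), and -0.33 for Srxn1 without SPI 3 and -0.34 without E2 2 (adjusted p = 0.0491 and 0.0445). That of Nqo1 was called under quantile normalization (-0.26, adjusted p = 0.0230) and as the mean per gene (-0.21, 0.0236).

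For the members that differed among groups, the probe sets whose values over the 12 arrays were most like theirs were sought among 20825 others with 1 symbol, by Pearson r given as a description, since arrays of 1 group share their treatment. Nqo1 was most like Cystm1 (r = 0.98), Pi16 (0.96) and Atf3 (0.95). Cyp1b1 was most like Shisal1 (0.96), Zrsr2-ps1 (0.95) and Hsd17b11 (0.95), and Cyp1a1 most like Spata7 (0.94), Pfkfb3 (0.94) and Srek1 (0.94). Hmox1 was most like Spn, the leukocyte sialophorin (0.97), Arhgap45 (0.95) and Tmcc2 (0.95). Gclm was most like Me2, a mitochondrial malic enzyme (0.97), Exo1, a DNA repair exonuclease (0.95), and Inhca (0.95). Among the members themselves Nqo1 and Gclm ran opposite (r = -0.82), and Gclm and Gclc 1372523_at ran together (0.83).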

How the data were processed

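Total RNA of pooled tibia, after aspiration of the marrow, was hybridised to Affymetrix rat genome arrays (12 arrays, 3 per group). Per the methods and the labels, the authors scanned the arrays with GCOS, summarised probes by RMA and normalised per chip and per gene. The deposited table holds log2 values (the log base was taken from the methods, since the table does not state it) centred on each probe set's median, so levels and signal over background are not known. The number of arrays limits the precision. No build is needed for these values.

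The 57 control probe sets were left out of 31099, and 0 columns of sample values went unused. Of those tested, 20826 had 1 gene symbol in the platform annotation, 436 several and 9780 none, and only the first kind was named. All 15 member probe sets matched the current RefSeq gene table by Entrez ID. Promoters came from RefSeq GRCr8.

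In R 4.3.3, limma 3.58.1 (lmFit, eBayes, two-sided) fitted the 4 groups together without a block, with Benjamini-Hochberg adjustment over 31042 probe sets and a threshold of 0.05. Gene lists used the mean of each gene's probe sets, over 14217 genes, without a set test. Replicates are pools numbered in the sample titles, and p-values measure the spread between pools only. The alternatives were a replicate block, quantile normalization, robust empirical Bayes, the mean per gene, leaving out each array, fits of 2 groups, one-way analysis of variance, and a 1.5-fold threshold. Those for list genes were chosen after seeing the data. The scripts were tested on simulated data.

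The members and all gene lists were chosen with earlier results of these data known. Every member probe set was described. From each pathway list up to 4 genes with the largest change among those past the test against CAS were named, and, for members past the F test, the 3 most similar probe sets.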

Additional observations from a re-analysis of the deposited data

Results flagged for a closer look

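The effect of the SPI diet with E2 differed from its effect without E2, by the limma interaction test, for 2 member probe sets and for some of the pathway genes named above. Those pathway genes were named for their change against CAS on the same arrays, so their number is no result about the pathway, and 2240 of all 14217 genes passed the same test. The log2 interaction, SPI+E2 minus E2 less SPI minus CAS, was -0.30 for Cyp1b1 (adjusted p = 0.0472) and 0.24 for Hmox1 (0.0322). It was below 0 for Gpx2 (-1.74, 1.05e-06) and Sult1a1 (-0.61, 0.00120). It was above 0 for the heme genes Blvrb (0.65, 3.54e-05), Fech (0.46, 0.000145) and Alas2 (0.44, 0.000251). It was also above 0 for Aldh1a1 (0.36, 0.00167), Tkt (0.31, 0.00578), Mgst3 (0.24, 0.0118), Pgd (0.23, 0.0388), Sod2 (0.22, 0.0156) and Me1 (0.19, 0.0347). The calls for Sult1a1, Gpx2, Blvrb, Fech, Alas2, Aldh1a1, Tkt and Mgst3 were kept in all 15 alternatives. That for Sod2 was lost under quantile normalization (highest adjusted p 0.0765), that for Me1 was kept in 4 of 15 and that for Pgd in 5 of 15. The Me1 call was lost under quantile normalization and without any E2 or SPI+E2 array, CAS 1, CAS 3, SPI 2 or SPI 3 (0.17 to 0.21). The Pgd call was lost without any E2 array, CAS 2, CAS 3, SPI 1, SPI 3, SPI+E2 1 or SPI+E2 2 (0.21 to 0.28). The erythroid markers, lowest in E2 arrays, moved with the heme genes, and their part was not tested.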

How the results depend on the processing

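No member changed direction among its calls in any alternative. The number of the 15 member probe sets called, leaving out 1 array at a time, was 1 to 2 for SPI against CAS (1 with all arrays), 2 to 4 for E2 against CAS (4), 2 to 4 for SPI+E2 against CAS (3), 2 to 4 for SPI against E2 (3), 0 to 3 for SPI+E2 against SPI (2), 1 to 3 for SPI+E2 against E2 (1), 0 to 2 for the interaction (2) and 3 to 6 for the F test (5). Over all 31042 probe sets, the calls then ran between 3607 and 5449 for SPI against CAS (5376 with all arrays), 2050 and 3232 for E2 against CAS (2902), and 1408 and 3183 for SPI+E2 against CAS (2631). The mean per gene called 2 for SPI against CAS and 3 for SPI+E2 against E2. Quantile normalization called 1 for SPI+E2 against SPI, 3 for SPI+E2 against E2 and 4 for the interaction. Robust empirical Bayes called 1 for SPI+E2 against SPI and 1 for the interaction. A fit of SPI+E2 and SPI alone called 0, and one-way analysis of variance called 3 among the 4 groups. The cause was not tested.

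The numbers of the pools did not pair the samples: deviations of arrays with the same number correlated between -0.07 and 0.24, over 0.1 in 4 of 18 pairs, and 6 of 12 arrays correlated best with their own number. With the replicate block, 2 member probe sets were called for SPI against CAS (Gclc 1370688_at added, -0.21, adjusted p = 0.0170), 3 for E2 against CAS and 2 for SPI against E2 (Cyp1b1 lost from both), 1 for SPI+E2 against SPI (Ahr lost), 0 for the interaction and 6 for the F test (Gclc 1370688_at added, 0.0424). Calls for SPI+E2 against CAS and SPI+E2 against E2 kept their numbers, 3 and 1. Of the named pathway genes, the block added Gpx2 in SPI+E2 against CAS (0.25, 0.0439) and the Arnt2 interaction (-0.34, 0.0458), and lost Ncf4 in SPI+E2 against CAS and the Pgd interaction.

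With a 1.5-fold threshold, 0 members were called against CAS. If the values were natural logarithms, 1 would reach it in SPI (Cyp1b1), 0 in E2 and 1 in the SPI+E2 group (Cyp1a1). Values are centred and no intensities were used, so faint probe sets could not be set aside, and 3 pools per group leave differences such as those of Gclc near the threshold.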
